A study of Homo sapiens with 12 samples.

Results

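The genes described here are 33 genes of the differentiated intestinal epithelium given by symbol as a set of enterocyte and goblet cell genes. The rule lists symbols and uses no measured value, but the members were chosen with earlier results of these data known. All 33 were measured, among 18334 named genes on the arrays, through 47 array features, of which 21 genes had a single one. By role, 22 belong to absorptive cells (7 of the microvillus, 7 brush border hydrolases, 4 of ion, peptide and carbon dioxide handling, 4 of lipid handling), 5 are secreted products of goblet and related secretory cells, and 6 are other intestinal epithelial genes. The 12 arrays carried RNA of 8 established tumour cell lines in Cy5, each against the same whole human reference RNA in Cy3. Single arrays without a media label came from SW620, HCT-116, HPAFII, HPAC and Capan2. Arrays labelled DMSO came in pairs from Panc1, HT29 and MiaPaca2, which also had 1 array with no such label. The series title concerns tissue factor and thrombosis in xenografts of pancreatic cancer. All lines are pancreatic in the design text, but SW620, HT29 and HCT-116 are catalogued as colorectal and are called so here.

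Enterocytes take up nutrients through a brush border of actin-filled microvilli, whose membrane carries the enzymes that finish the digestion of sugars and peptides. The tips of neighbouring microvilli are tied together by the protocadherins CDHR2 and CDHR5, which bind the scaffold USH1C inside the cell. Goblet cells secrete mucins together with small proteins such as the trefoil factor TFF3. The homeobox factor CDX2 sets intestinal identity, and hepatocyte nuclear factor 4, GATA and Kruppel-like factors act with it in the gut epithelium. Intestinal genes are also known to be turned on in some tumours of the pancreas and stomach.

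Each value is a log2 ratio, taken as cell line over reference. The dyes make that direction likely, but it is not stated, and the opposite one would invert all signs and orders given here. A ratio to a mixed reference does not give abundance, so values are compared between lines for 1 gene and not between genes. No signal intensities were used, so whether a feature rose above background is unknown. In a cell line, fewer cells that express a gene and less RNA per cell cannot be told apart. Lines with 1 array have no replicate check. The labels name no separate cultures for paired arrays, so the spread behind each p-value may be technical only.

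Intestinal regulators are known to bind near the starts of intestinal genes. The promoters shown are 3 of the 11 members' promoters that held at least 1 of the motifs below. They were not picked by how widely the gene varied, and they do not stand for all members. RefSeq (GRCh38.p14) gave a promoter entry for 24 of the 33 members. In the 250 bases before each start, both strands were searched for CATAAA, a core bound by CDX factors. The search also took AGATAA, a core bound by GATA factors. The third motif was GTTAAT, a core of other homeodomain factors, and matches of all 3 stand in capitals. SI, the sucrase-isomaltase gene, held 3 CDX cores and 1 homeodomain core in chr3:165078497-165078746 on the minus strand. REG4 held a GATA and a CDX core in chr1:119811461-119811710 and AGR2 held the same kinds in chr7:16805000-16805249, both on the minus strand.
SI: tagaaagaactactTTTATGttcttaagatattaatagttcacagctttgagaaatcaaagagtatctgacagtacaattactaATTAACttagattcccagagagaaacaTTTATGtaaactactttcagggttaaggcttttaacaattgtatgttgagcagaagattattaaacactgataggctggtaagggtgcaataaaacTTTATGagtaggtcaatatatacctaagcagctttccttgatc
REG4: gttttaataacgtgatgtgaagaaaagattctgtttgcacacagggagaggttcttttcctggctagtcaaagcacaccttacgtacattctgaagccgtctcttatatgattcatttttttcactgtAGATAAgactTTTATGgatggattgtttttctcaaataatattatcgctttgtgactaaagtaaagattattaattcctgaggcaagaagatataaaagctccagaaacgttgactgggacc
AGR2: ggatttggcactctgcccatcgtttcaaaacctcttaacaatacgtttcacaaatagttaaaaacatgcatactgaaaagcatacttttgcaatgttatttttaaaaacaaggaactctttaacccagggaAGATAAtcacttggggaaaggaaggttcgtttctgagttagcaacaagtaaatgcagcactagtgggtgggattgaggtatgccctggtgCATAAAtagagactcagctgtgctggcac

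CATAAA was found in 6 of the 24 member promoters, 25.0%, and in 9.64% of the 35116 promoters of the table, or 6.82% of those of genes named on the arrays. AGATAA was found in 6, against 9.17% and 6.47%. GTTAAT was found in 5, or 20.8%, against 6.23% and 4.41%. The letters share A and T, and the member promoters had a median A or T content of 42.4%, against 42.0% over all promoters and 37.2% over those named on the arrays. LGALS4, DPP4, CDHR2, GPA33 and APOBEC1, all of which were high in HPAFII, held none of the motifs in this window. A match is a run of letters and not a measured binding site, and no test was made.

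The intestinal genes were high in 2 of the 8 lines, the pancreatic line HPAFII and the colorectal line HT29. In HPAFII 18 of the 33 lay more than 1 log2 unit above the reference, and in HT29 16 did, whereas 12.6% and 8.54% of all named genes did so. Capan2 had 6 such members, HPAC and HCT-116 5 each, SW620 4, Panc1 3 and MiaPaca2 none. The members' median was 1.34 in HPAFII and 0.78 in HT29, and lay between -0.36 in MiaPaca2 and 0.22 in Panc1 elsewhere. HPAFII was highest of the 8 lines for 16 of 33 members, against 14.7% of all named genes, and was highest by more than 1 for 8 members, against 1.47%. Among the 5 pancreatic lines alone HPAFII led by more than 1 for 12 members, against 2.63% of all named genes, and among the colorectal lines HT29 did for 8, against 4.07%. The 8 led by HPAFII over all lines were MYO1A, CDHR2, CDHR5, SI, DPP4, APOBEC1, LGALS4 and GUCY2C. Since HPAFII and HT29 were singled out with earlier results of these data known, the counts are a description.

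**Figure D1:**
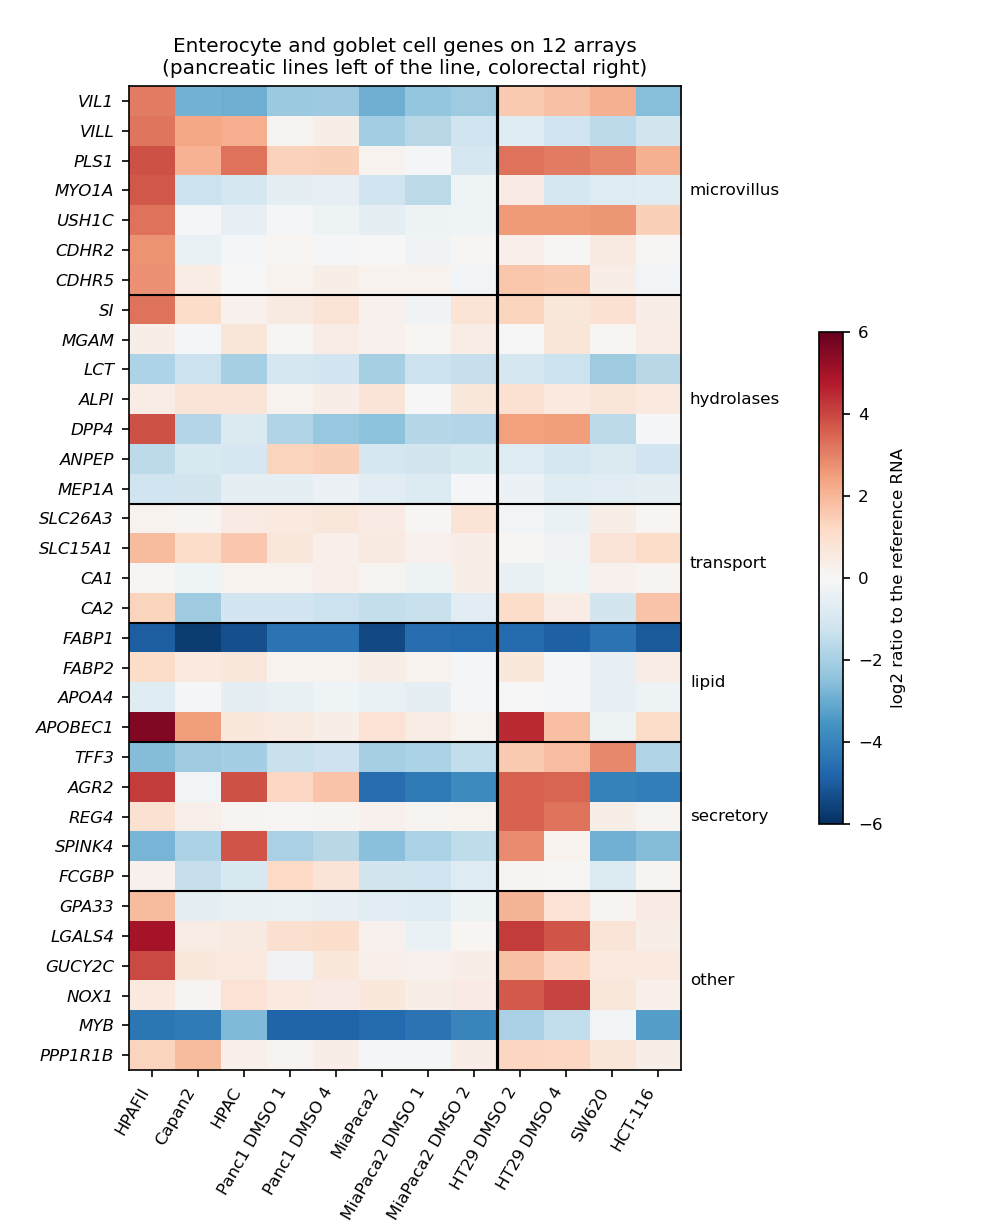
Log2 ratio of the 33 genes (rows, grouped by role) on the 12 arrays (columns), red above and blue below the reference. The first column, HPAFII, is red for all 7 microvillus genes, the column of HT29 replicate 2 is red for TFF3, AGR2, REG4 and SPINK4, and FABP1 is dark blue on every array.

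Both HPAFII and HT29 lay above the 6 other lines for 8 of the 33 members, against 3.38% of all named genes. The 8 were MYO1A, CDHR5, DPP4, APOBEC1, REG4, GPA33, LGALS4 and GUCY2C, and CDHR5, DPP4 and LGALS4 did so by more than 1 log2 unit, against 0.289%. The count was 6 without HT29 replicate 2 and 9 without replicate 4. The 2 HT29 arrays themselves differed by more than 1 for 4 members, against 4.43% of all genes. APOBEC1, which edits the apolipoprotein B message, read 4.48 on replicate 2 and 1.81 on replicate 4, and the second value lies below the 2.52 of Capan2. MYO1A read 0.49 and -1.07, so its place in the pair rests on replicate 2. SPINK4 read 2.84 and 0.20 and GPA33 2.04 and 0.86. For GPA33 and for REG4, the pair did not lie above all other lines on 1 of the 2 features. For CDHR5, 1 of the 2 features read 0.382 and 0.549 in HT29 and 0.555 on Panc1 replicate 4. Its lead by more than 1 therefore rests on the other feature.

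All 7 microvillus genes were highest in HPAFII. VIL1, the villin that bundles actin in microvilli, read 3.05 in HPAFII, 2.14 in SW620, and 1.58 and 1.78 in HT29. Every other array lay between -2.93 and -2.12, so villin split the lines into a high group of 3 and a low group of 5 that holds HCT-116 as well as the other pancreatic lines. PLS1, a second actin bundler, was less selective, at 3.82 in HPAFII, 3.26 in HPAC, 3.25 and 3.13 in HT29, 2.90 in SW620, 2.13 in HCT-116 and 2.06 in Capan2. It was lowest in MiaPaca2, at 0.20, -0.12 and -1.03. VILL, the villin-like gene, followed neither: it read 3.22 in HPAFII, 2.32 in Capan2 and 2.16 in HPAC. In the colorectal lines it lay between -1.58 in SW620 and -0.71 in HT29 replicate 2. MYO1A, the motor that ties the actin core to the membrane, read 3.73 in HPAFII, and the other 11 arrays lay between -1.55 and 0.49.

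The 3 members of the complex that links microvilli also had their highest value in HPAFII, but HT29 shared only part of it. USH1C read 3.26 in HPAFII, 2.64 in SW620, 2.55 and 2.56 in HT29 and 1.44 in HCT-116. The 4 other pancreatic lines lay between -0.53 and -0.12 on all arrays, so each colorectal array was above each of those. CDHR5 read 2.74 in HPAFII and 1.68 and 1.56 in HT29, and -0.16 to 0.43 elsewhere. These are means of 2 features, and on 1 of them HT29, at 0.382 and 0.549, was not set apart from the other lines. CDHR2 read 2.68 in HPAFII and -0.41 to 0.52 on the 11 other arrays, with the HT29 arrays at 0.31 and 0.08 inside that range. Among genes that are not members and were picked after their values were seen, the complex scaffold ANKS4B read 2.06 in HPAFII and 1.89 and 1.65 in HT29. Its motor MYO7B read 2.36 in HPAFII and -0.52 to 0.52 elsewhere.

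**Figure D2:**
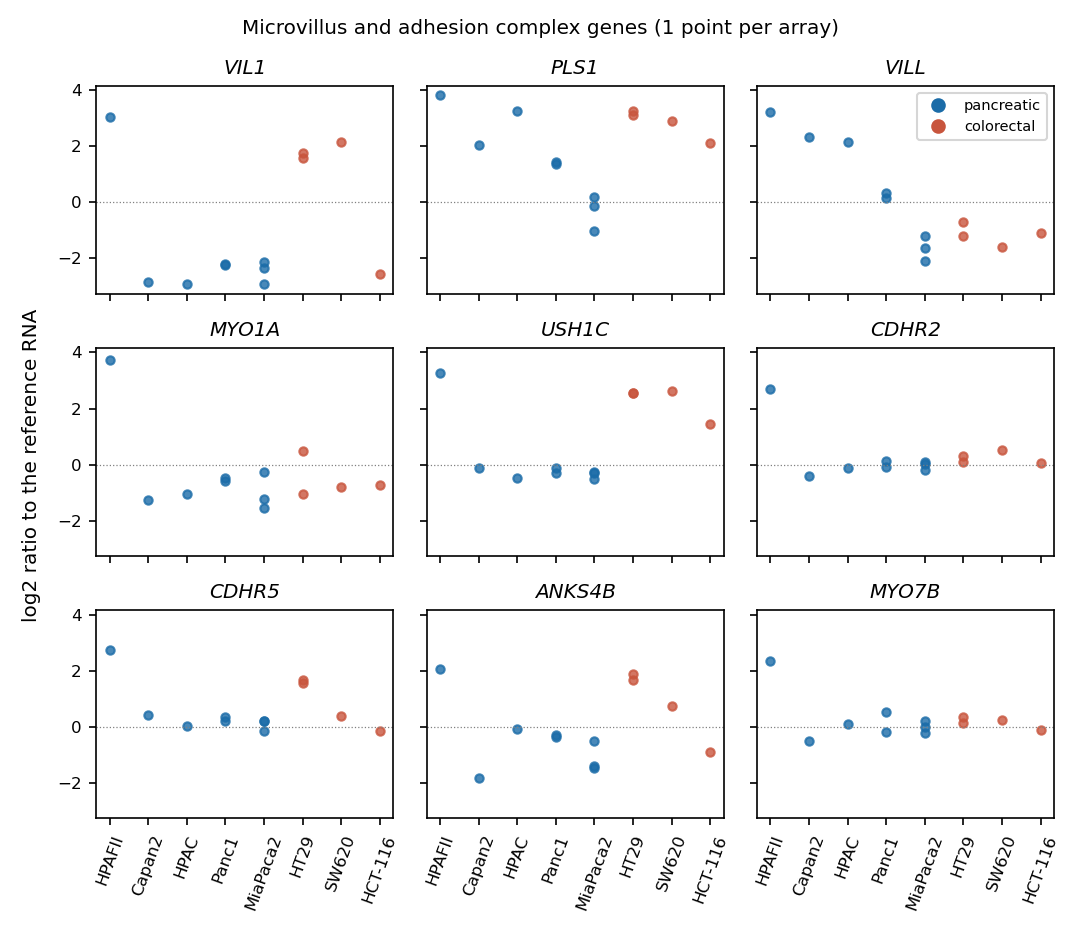
Log2 ratio (vertical axis) of the 7 microvillus members and of ANKS4B and MYO7B in each line, 1 point per array, pancreatic lines in blue and colorectal lines in red. HPAFII, the leftmost line, is highest for every gene, at 2.06 to 3.82, while HT29 is near it for USH1C, CDHR5 and ANKS4B and not for CDHR2 or MYO7B.

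Of the 7 brush border hydrolases, SI was highest in HPAFII, DPP4 in HPAFII and HT29 and ANPEP in Panc1, and the other 4 varied little. DPP4, which cuts dipeptides from peptide ends, read 3.81 in HPAFII and 2.48 and 2.52 in HT29. It lay between -2.46 and -0.09 on the 9 other arrays. SI read 3.27 in HPAFII and -0.20 to 1.35 elsewhere, and the 2 HT29 arrays, 1.35 and 0.69, overlapped the 1.11 of Capan2. ANPEP, an aminopeptidase, ran the other way: the Panc1 arrays read 1.32 and 1.45 and all others lay between -1.56, in HPAFII, and -0.78. Its 2 features differed, 1 spanning 5.91 and the other 0.57 over the arrays. MGAM, LCT, ALPI and MEP1A, the maltase-glucoamylase, lactase, intestinal alkaline phosphatase and meprin A genes, each spanned less than 2 log2 units over the 12 arrays. MGAM lay between -0.06 and 0.72, LCT between -2.14 and -1.01, ALPI between -0.04 and 0.93 and MEP1A between -1.19 and -0.10.

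Transport and lipid genes held the other flat members. The chloride exchanger gene SLC26A3 lay between -0.40 and 0.84 and the carbonic anhydrase gene CA1 between -0.44 and 0.33. CA2, which encodes a second carbonic anhydrase, read 1.71 in HCT-116, 1.36 in HPAFII and 1.12 and 0.43 in HT29, and -0.68 or less on all others. The peptide transporter gene SLC15A1 was highest in HPAFII at 1.91 and HPAC at 1.63 and lowest in HT29 at 0.06 and -0.21. On 1 of its 2 features, which spanned only 0.73, HPAFII at 0.72 lay below HPAC at 0.87. FABP1, the liver-type fatty acid binding protein gene, lay between -5.69 and -4.43 on every array. FABP2, the intestinal type, lay between -0.49 in SW620 and 1.12 in HPAFII, and the apolipoprotein gene APOA4 between -0.72 and -0.04. APOBEC1 reached 5.55 in HPAFII, its highest, followed by the unequal HT29 arrays and by Capan2. In all 9 members spanned less than 2, all of them absorptive, as did 59.0% of all named genes. The members' median span was 3.47, against 1.76 over all genes.

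The secretory genes did not follow 1 line. TFF3 read 2.89 in SW620 and 1.57 and 1.83 in HT29, and between -2.60 in HPAFII and -1.24 in Panc1 elsewhere, so the line with the highest absorptive genes had the lowest TFF3. REG4, a secreted lectin of enteroendocrine and goblet cells, read 3.54 and 3.24 in HT29, 0.89 in HPAFII and 0.07 to 0.35 in the rest. On 1 of its 2 features HPAFII read 0.40, below 0.52 in HPAC and 0.50 and 0.67 in Panc1. AGR2, the isomerase that folds mucins, was high in lines of both origins. It read 4.17 in HPAFII, 3.83 in HPAC, 3.53 and 3.51 in HT29 and 1.25 and 1.70 in Panc1, and then -0.18 in Capan2. In SW620, HCT-116 and MiaPaca2 it lay between -4.57 and -3.82, a span of 8.38 between the highest and lowest line means. SPINK4, a protease inhibitor of goblet cells, was highest in HPAC at 3.79, followed by the 2 unequal HT29 arrays, and lay between -2.86 and -1.52 elsewhere. FCGBP, a mucus protein, read 1.19 and 0.77 in Panc1 and -1.39 to 0.24 elsewhere, with features that spanned 0.78 and 4.61.

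**Figure D3:**
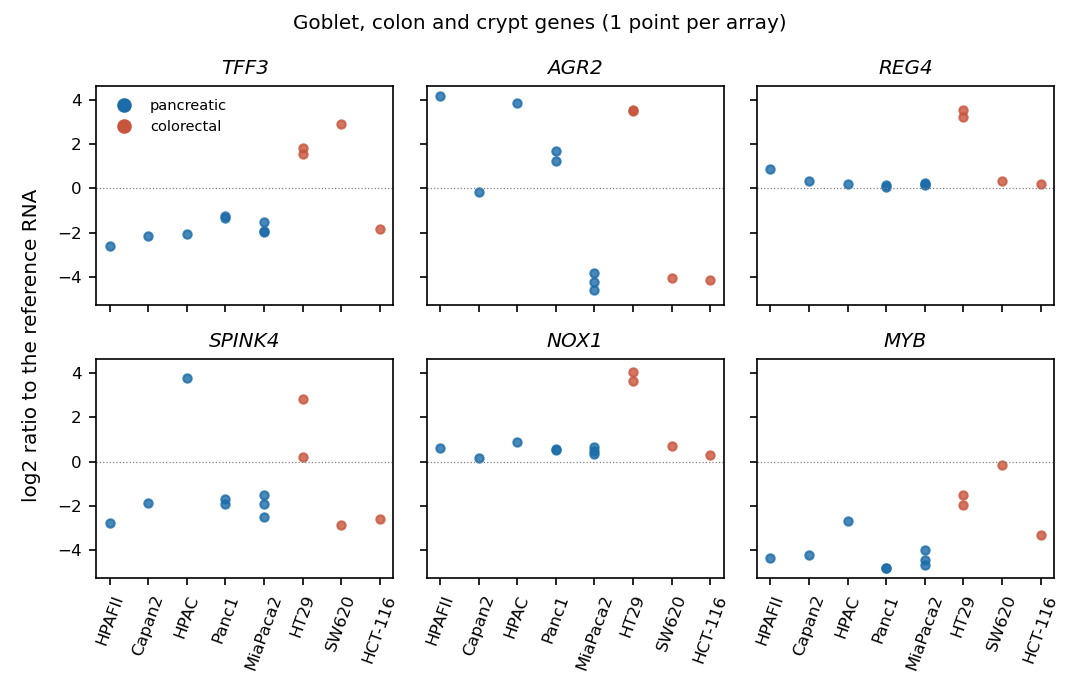
Log2 ratio (vertical axis) of TFF3, AGR2, REG4, SPINK4, NOX1 and MYB in each line, 1 point per array, pancreatic lines in blue and colorectal lines in red. TFF3 is high in HT29 and SW620, REG4 and NOX1 in HT29 alone, SPINK4 in HPAC and on 1 HT29 array, and AGR2 splits the lines without regard to origin.

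Of the 6 other epithelial genes, LGALS4, GUCY2C and GPA33 had the pattern shared by HPAFII and HT29. LGALS4, a galectin of apical membranes, read 4.99 in HPAFII, 4.19 and 3.78 in HT29 and -0.41 to 1.03 elsewhere. GUCY2C, the receptor of the gut peptides guanylin and uroguanylin, read 3.98 in HPAFII, 1.76 and 1.29 in HT29 and -0.20 to 0.66 elsewhere. GPA33, a surface antigen of the gut, read 1.88 in HPAFII, 2.04 and 0.86 in HT29 and -0.73 to 0.48 elsewhere. On 1 of its 2 features the HT29 arrays read 0.66 and 0.37, below 0.84 in HPAC and 0.71 in Capan2. NOX1, the colon superoxide-producing oxidase, was high in HT29 alone, at 3.66 and 4.05, against 0.19 to 0.87. MYB, a transcription factor of crypt progenitors, was below the reference on every array and highest in SW620 at -0.15, then in HT29 at -1.94 and -1.48. PPP1R1B, a phosphatase inhibitor, was highest in Capan2 at 1.90, followed by HPAFII at 1.34 and HT29 at 1.30 and 1.25.

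Within a line, absorptive and secretory genes were set against each other by their medians. Ratios to the reference are not compared between genes, so the sign of their difference in a line carries no meaning. Only its shift between lines is read. The absorptive minus secretory median was 1.39 in HPAFII and -1.45 from the HT29 means, so these lines, alike in many single genes, lay far apart. It was -2.44 on HT29 replicate 2 and -1.81 on replicate 4, both lower than from the gene means. It was 1.91 in HCT-116, 1.46 in MiaPaca2, 1.30 in Capan2, 0.73 in SW620, 0.13 in Panc1 and -0.22 in HPAC. The absorptive median itself was 1.63 in HPAFII and at most 0.25 in the others. The secretory median was -1.82 in HCT-116, -1.79 in MiaPaca2, -1.39 in Capan2 and -0.82 in SW620, and 0.105 in Panc1, where the absorptive median was 0.24. With 5 secretory genes the median is a single gene. With 28 further absorptive and 11 further secretory genes added the difference was 0.90 in HPAFII and -0.60 in HT29, and -0.16 in SW620, where it changed sign. A change of sign is not read by itself, but the spacing of the lines changed too. HCT-116, highest before at 1.91, then stood at 0.15, below HPAFII. In HPAC it also changed sign, to 0.16, when each gene was read by its most variable feature.

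**Figure D4:**
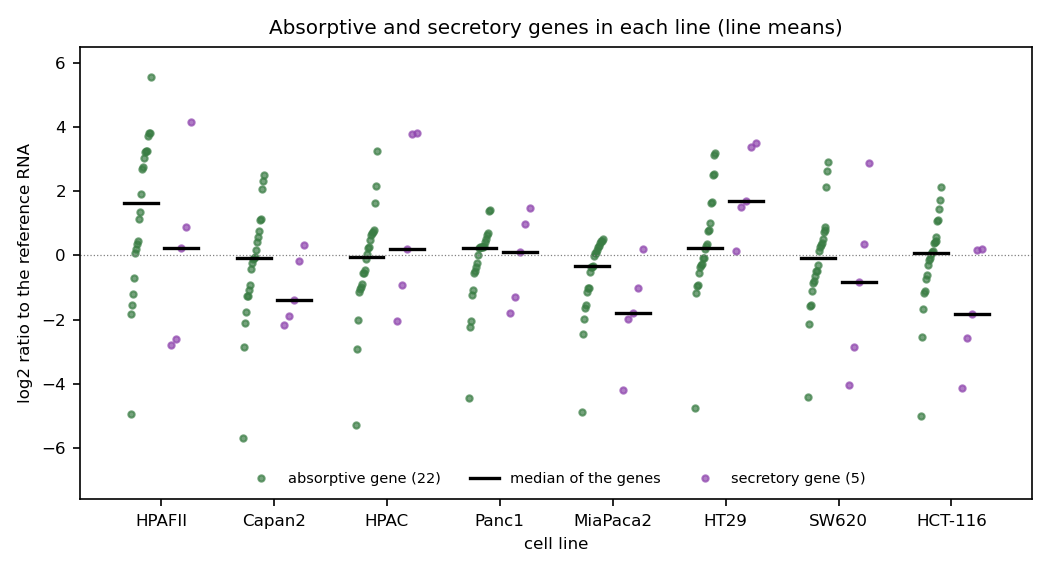
Log2 ratio (vertical axis, line means) of the 22 absorptive genes in green and the 5 secretory genes in purple in each line, with black bars at the medians. The absorptive median is highest in HPAFII at 1.63 and the secretory median is highest in HT29 at 1.70.

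The DMSO-labelled pairs allowed HT29 to be compared with Panc1 and MiaPaca2 against replicate error, and both comparisons use the same HT29 arrays. Most members that differed were lower in the pancreatic lines. In Panc1 17 of 33 members were lower than in HT29 and 4 higher (limma, Benjamini-Hochberg adjusted p under 0.05 over 18334 genes, n = 2 arrays each). Over all named genes 37.3% were called, 15.9% lower and 21.4% higher, so many genes differ between these lines, and the members' share of 17 in 33 is to be read against the 15.9% that were lower. The members' median difference was -0.998, against 0.07 over all genes. Of the absorptive genes 7 of 22 were lower and 3 higher, of the secretory genes 4 of 5 were lower and 1 higher, and all 6 other genes were lower.

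DPP4 had the largest difference between Panc1 and HT29. The Panc1 arrays read -1.81 and -2.27 and the HT29 arrays 2.48 and 2.52, a difference of -4.54 (SE 0.235, limma, adjusted p = 5.274e-06). VIL1 followed, with -2.25 and -2.19 against 1.58 and 1.78, a difference of -3.90 (SE 0.217, limma, adjusted p = 7.297e-06). In both genes the arrays of a line lay within 0.5 of each other. SPINK4 read -1.93 and -1.67 in Panc1 against 2.84 and 0.20 in HT29, a difference of -3.32 with a wide error (SE 0.69, limma, adjusted p = 0.006202). NOX1, REG4, MYB, LGALS4, TFF3, USH1C, APOBEC1 and AGR2 had log2 differences between -3.31 and -2.05. GPA33, PLS1, CDHR5, GUCY2C and PPP1R1B had log2 differences between -1.90 and -0.998, and CA2 one of -1.998. PPP1R1B read 0.15 and 0.40 in Panc1 against 1.30 and 1.25 in HT29.

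The 4 members higher in Panc1 were ANPEP, VILL, SLC26A3 and FCGBP. ANPEP read 1.32 and 1.45 in Panc1 and -0.78 and -1.05 in HT29, a difference of 2.29 (SE 0.222, limma, adjusted p = 0.0001207). VILL read 0.16 and 0.35 against -0.71 and -1.20, a difference of 1.20 (SE 0.266, limma, adjusted p = 0.008306), which did not pass without Panc1 replicate 4 (1.11, adjusted p = 0.05974). The last 2 calls were weak. SLC26A3, at 0.60 and 0.68 against -0.15 and -0.40, and FCGBP, at 1.19 and 0.77 against 0.18 and 0.08, differed by 0.91 and 0.86. Neither passed with quantile normalization (adjusted p = 0.06307 and 0.05117) or without any 1 of the 4 arrays. GUCY2C and PPP1R1B did not pass without HT29 replicate 2 or without Panc1 replicate 1, nor APOBEC1 with robust variances (adjusted p = 0.05525).

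In MiaPaca2 18 of 33 members were lower than in HT29 and none higher, against 14.5% and 17.4% of all named genes and 31.9% in either direction. The members' median difference was -1.11, against 0.03 over all genes. AGR2 had the largest, with the MiaPaca2 arrays at -4.24 and -3.82 and the HT29 arrays at 3.53 and 3.51, a difference of -7.55 (SE 0.256, limma, adjusted p = 2.933e-06). The arrays of each line were far closer than the lines were. DPP4, at -1.71 and -1.77 in MiaPaca2, differed by -4.23 and LGALS4, at -0.41 and 0.13, by -4.12 (limma, adjusted p = 8.38e-06 and 1.638e-05). The smallest called differences were -1.10 for FCGBP, -1.11 for PPP1R1B and -1.20 for GUCY2C. FCGBP arrays read -1.18 and -0.77 in MiaPaca2, PPP1R1B arrays -0.08 and 0.41, and GUCY2C arrays 0.24 and 0.41. The GUCY2C call did not pass without HT29 replicate 2 or without either MiaPaca2 array (adjusted p from 0.06117 to 0.1178). The FCGBP call did not pass without HT29 replicate 2 or MiaPaca2 replicate 1, nor those of APOBEC1 without either MiaPaca2 array and SPINK4 without replicate 1.

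**Figure D5:**
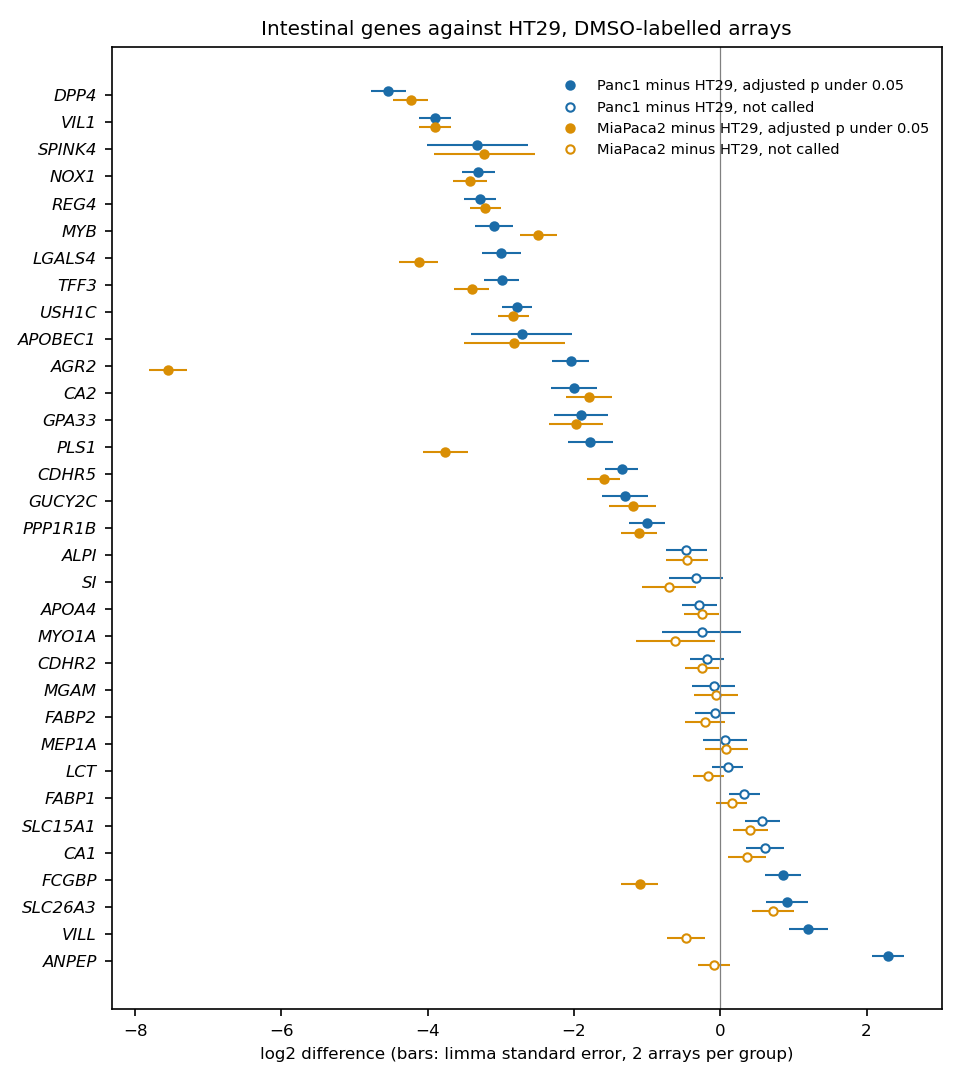
Log2 difference (horizontal axis, bars are limma standard errors, 2 arrays per group) of each member between Panc1 and HT29 in blue and between MiaPaca2 and HT29 in orange, filled where the adjusted p was under 0.05. AGR2 and PLS1 are further below HT29 in MiaPaca2 than in Panc1, and ANPEP, VILL and FCGBP are above it in Panc1.

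Panc1 and MiaPaca2 differed from each other in 6 of 33 members, all lower in MiaPaca2. Over all named genes 11.3% were lower, 7.4% higher and 18.7% called in either direction. The 6 of 33 members called thus lie near the 18.7%, so their number does not set the members apart. Whether the members' share of lower genes exceeds the 11.3% was not tested. AGR2 differed by -5.51 (SE 0.256, limma, adjusted p = 1.213e-05), from 1.25 and 1.70 in Panc1 to -4.24 and -3.82. ANPEP differed by -2.38, from 1.32 and 1.45 to -1.09 and -0.92, and PLS1 by -1.99, from 1.38 and 1.45 to -0.12 and -1.03. FCGBP differed by -1.96, VILL by -1.67 and LGALS4 by -1.13, the last from 0.95 and 1.03 to -0.41 and 0.13. VILL went from 0.16 and 0.35 in Panc1 to -1.64 and -1.20 in MiaPaca2. The LGALS4 call did not pass without either Panc1 array or without MiaPaca2 replicate 1. VIL1 differed by 0.00 (SE 0.217) and USH1C by -0.05 (SE 0.21).

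Across origins no member passed. With each line counted once, 0 of 33 members were called between the 3 colorectal and the 5 pancreatic lines (limma on line means), and 0.0218% of all named genes were, all of them lower in the colorectal lines. At an unadjusted p under 0.05 there were 3 of 33 members, MYB, TFF3 and VILL, which lies near the 8.14% of all genes. MYB was higher in the colorectal lines by 2.35 (SE 0.726, limma, adjusted p = 0.4779), with SW620 and HT29 above all pancreatic lines and HCT-116, at -3.32, below the -2.67 of HPAC. TFF3 was higher by 2.90 (SE 0.929, limma, adjusted p = 0.5057), with HCT-116 inside the pancreatic range. VILL was lower by 2.47 (SE 1.01, limma, adjusted p = 0.5901). For villin the difference was 1.90 (SE 1.6), since HPAFII was high and HCT-116 low. Without HPAFII it was 3.04 for VIL1, 2.50 for USH1C, 1.95 for DPP4 and 1.23 for LGALS4, and none passed (limma, adjusted p = 0.5789, 0.1137, 0.6366 and 0.7444). DMSO arrays stood behind 1 of 3 colorectal and 2 of 5 pancreatic lines, and the part of the media label was not tested.

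Regulators of intestinal identity were measured for 16 genes of a list. CDX2 read 2.62 in HPAFII and 0.67 to 1.33 on the 11 other arrays, with HT29 at 1.33 and 1.09 near the rest. CDX1 read 1.42 and 0.75 in HT29 and 0.53 in HPAFII. HNF4G had a mean of 3.03 in HT29 and read 2.70 in HPAFII and 2.30 in Capan2, and at most 1.06 elsewhere. SPDEF, a goblet cell factor, read 1.99 and 1.19 in HT29, 0.87 in HPAFII and below -0.42 elsewhere, while ATOH1, which starts the secretory fate, had line means of only 0.08 to 0.96. Against HT29, 15.9% of all named genes were lower in Panc1 and 21.4% higher, and 14.5% were lower in MiaPaca2 and 17.4% higher. Of the 16 regulators, 7 were lower in Panc1 and 2 higher, and 9 were lower in MiaPaca2 and 1 higher. The largest were FOXA1 at -5.78, KLF5 at -5.49 and GATA6 at -4.05 in Panc1, and GATA6 at -5.55, FOXA1 at -4.99 and KLF5 at -4.92 in MiaPaca2. CDX1, CDX2 and ATOH1 did not pass in either comparison, with CDX2 at -0.19 and -0.40.

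Other genes of the same cell types, from lists that hold no member, were read in the same lines, and the difference between the lists was not tested. HPAFII and HT29 both lay above the 6 other lines for 6 of 28 further absorptive genes and for 0 of 11 further secretory ones. Over all named genes 3.38% did so, and the 0 of 11 lies near that share. The adhesion gene CDH17 read 7.21 in HPAFII and 3.26 and 1.57 in HT29, where Panc1 replicate 4, at 1.59, overlapped it. The keratin gene KRT20 read 5.88 in HPAFII and 5.06 and 4.72 in HT29, and the membrane mucin gene MUC13 5.59, 4.63 and 3.93. Against HT29, 5 of the 28 were lower in Panc1 and 3 higher, and 6 were lower in MiaPaca2 and 3 higher, led by KRT20 at -4.74 and MUC13 at -5.48. Over all named genes 15.9% were lower and 21.4% higher in Panc1, and 14.5% and 17.4% in MiaPaca2, so the 5 of 28 lower in Panc1 lie near the background and the 3 higher in each line below it. Of the 11 secretory genes 3 were lower in each and none higher, with HEPACAM2 at -3.37 in both. MUC2, the main goblet mucin, had line means of 0.03 to 0.75 and did not pass against HT29 in either line (limma, adjusted p = 0.8615 and 0.2083).

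Some markers of other cell types also differed between HT29 and Panc1 or MiaPaca2. The background was 21.4% of all named genes higher and 15.9% lower in Panc1, and 17.4% higher and 14.5% lower in MiaPaca2. The lists hold 3 to 5 markers, too few to set their counts apart from these shares. Of 4 measured mesenchymal markers, 3 stood above HT29 in Panc1 and 2 in MiaPaca2. Their median was -2.60 and -2.89 on the HT29 arrays, 0.40 and 0.34 in Panc1 and -0.06 and -0.30 in MiaPaca2. VIM was higher by 6.41 in Panc1 and 6.76 in MiaPaca2. In HPAFII the same median was -3.33. Of 5 Paneth markers 1, LYZ, was lower in both Panc1 and MiaPaca2, with differences of -8.55 and -8.51. Of 4 duct markers CFTR was lower in both, with -4.997 and -4.76. The duct marker SOX9 went the other way in Panc1, higher by 1.25 (limma, adjusted p = 0.01066). KRT19 was lower in MiaPaca2, by a difference of -1.52 (limma, adjusted p = 0.004043). Of 3 endocrine markers 2 were higher in each line, led by CHGB at 4.26 and 2.87, and of 5 hepatocyte markers 1 was higher and 2 lower in each. Of 4 crypt markers ASCL2 was lower in both, by differences of -2.50 and -2.20, while SMOC2 was higher in MiaPaca2 by 2.13 (limma, adjusted p = 0.001966). Of 5 gastric markers TFF2 was lower in MiaPaca2, by a difference of -1.51 (limma, adjusted p = 0.02245), and none passed in Panc1. None of 4 acinar markers passed in either comparison. Their part in the differences of the members was not tested. In the 5 pancreatic lines the duct keratin gene KRT19 had line means between -0.86 in MiaPaca2 and 3.70 in HPAFII.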

How the data were processed

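The authors deposited 1 value per array feature and array, taken here as a log2 ratio because the values centre near 0. Per the labels, the cell line carried Cy5 and the reference Cy3. Log base, direction, background correction and normalization are unstated in the labels. Of 45220 features, 31332 had 1 gene symbol in the platform annotation, 93 several and 13795 none, and only the first were used. Symbols were updated to RefSeq and the features of a gene averaged, giving 18334 genes, with no further filter. Array medians lay between -0.015 and 0.031.

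Lines with 2 DMSO-labelled arrays were compared with limma 3.58.1 (R 4.3.3) on 12 arrays in 9 groups of line and media label, with 3 residual degrees of freedom and a prior of 5.23. Origins were compared with limma on 8 line means, a line's arrays averaged. Both tests were two-sided with Benjamini-Hochberg adjustment over all genes and a threshold of 0.05, and were tested on simulated data. Differences are the first line minus the second. Comparisons of HPAFII and HT29 with the rest, and of absorptive with secretory genes, are descriptions. Alternatives were another centring, quantile normalization, the median or most variable feature of a gene, a filter on SD, a minimum difference, robust variances, other groupings of arrays, and leaving out each array or line.

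Every member is named, those with the 3 largest and 3 smallest called differences with all their arrays. From other lists CDX1, CDX2, HNF4G, ATOH1, SPDEF, KRT20, CDH17, MUC2 and MUC13 are always given, and otherwise at most 4 called genes with the largest difference. Members and lists were chosen with earlier results of these data known. Figures were drawn with matplotlib 3.10.9.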

Additional observations from a re-analysis of the deposited data

Results flagged for a closer look

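Among the 5 pancreatic line means, 15 of the 33 members had 1 line whose gap to its neighbour was too large a share of the range for 5 values (Dixon's ratio above 0.71), against 7.69% of all named genes. Chance alone flags about 5% of such groups, and line means within a gene set are not independent. In 12 of the 15 the line was HPAFII at the top, against 1.18% of all named genes. HPAFII was singled out and the members were chosen with earlier results of these data known, so these counts are a description. HPAFII stood at 3.05 for VIL1, 3.73 for MYO1A, 3.26 for USH1C, 2.68 for CDHR2 and 2.74 for CDHR5. It stood at 3.27 for SI, 3.81 for DPP4 and 1.36 for CA2. It stood at 0.89 for REG4, 1.88 for GPA33, 4.99 for LGALS4 and 3.98 for GUCY2C. On 1 of the 2 REG4 features HPAFII, at 0.40, lay below HPAC and Panc1. HPAFII rests on 1 array.

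The other 3 were in other lines. Panc1 stood at 1.38 for ANPEP, on 2 arrays. HPAC stood at 3.79 for SPINK4 and at -2.67 for MYB, on 1 array.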

How the results depend on the processing

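Every total of called members, both directions together, stayed within 1.5 times its main value under all alternatives run. The 4 members higher in Panc1 than in HT29 did not: they were 2 with quantile normalization, 2 with a difference of at least 1 and 2 without replicate 1 of Panc1 or either HT29 array, and only 1 when replicate 4 of Panc1 was left out. The count higher in MiaPaca2 than in HT29 went from 0 to 1 without MiaPaca2 replicate 1. Leaving out 1 array gave 17 to 19 called members between Panc1 and HT29, 15 to 18 between MiaPaca2 and HT29, 5 to 6 between MiaPaca2 and Panc1 and 6 to 9 for HPAFII and HT29 above the other lines. Leaving out each line gave 0 to 0 between origins. A group left with 1 array is assumed to vary like the other groups. Of 1614 recomputed single member values 1583 kept their side of the threshold, 28 lost the call, 3 gained it and no called value reversed. Calls gained were SLC26A3 and SI in MiaPaca2 against HT29 without 1 MiaPaca2 array, and MYB in MiaPaca2 against Panc1 with quantile normalization, at 1.06. The absorptive minus secretory median moved most, and reversed marks a change of sign, which carries no meaning by itself. With quantile normalization it was 1.06 in HPAFII. With the most variable feature it was 1.72 in Capan2, 0.16 in HPAC (reversed), 1.82 in HPAFII, 0.61 in Panc1, 2.46 in HCT-116 and 2.01 in SW620. With other absorptive and secretory genes added it was 0.30 in Capan2, -0.56 in HPAC, 0.90 in HPAFII, 0.26 in MiaPaca2, 0.15 in HCT-116, -0.60 in HT29 and -0.16 in SW620 (reversed). The cause was not tested. No paired analysis was possible because the groups compared share only 1 replicate number. The number of arrays limits the precision, and signal over background is unknown.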

Other observations

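Genes of crypt and gastric cells, picked here after their values were seen, were highest in SW620, HPAFII or HPAC. The crypt stem cell genes ASCL2, LGR5 and SMOC2 were highest in SW620, at 3.23, 1.73 and 5.47, the line in which MYB and TFF3 were also highest. OLFM4, another crypt gene, was highest in HPAFII at 5.24. The gastric gene GKN1 read 5.08 in HPAC, the line highest for SPINK4, and 2.50 in Capan2. TFF2, a gastric trefoil factor, read 4.42 in HPAC, 4.25 in HPAFII and 3.98 in Capan2. Each of these lines had 1 array, so the values have no replicate check.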
